A study of Mus musculus with 8 samples.

Results

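The nuclear genes for the subunits of the respiratory chain and the ATP synthase were followed across 8 mouse RNA sequencing libraries. The members are all gene symbols of the deposited tables that begin with Ndufa, Ndufb, Ndufc, Ndufs, Ndufv, Uqcr, Cox4 to Cox8 or Atp5, together with Sdha, Sdhb, Sdhc and Sdhd. This rule gave 86 of 14042 genes: 37 of complex I, 8 complex I assembly factors (the Ndufaf genes), 4 of complex II, 8 of complex III, 12 of complex IV and 17 of complex V. Atp5s and Atp5sl share the prefix without being subunits, Cox7a2l is a factor that joins complexes into supercomplexes, and Ndufa4 is now placed in complex IV. Subunits encoded by mitochondrial DNA fall outside the rule and were not analysed here.

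There were 4 groups of 2 libraries. The naive WT and naive KO groups were CD4 T cells sorted as CD62L high and CD44 low from wild-type mice or from C5aR1-/- mice, which lack a receptor for the complement fragment C5a. For the TFH WT and TFH KO groups, splenocytes of WT or C5aR1-deficient donors, depleted of CD8 cells, had been given to (bxd)F1 hosts. Donor cells positive for CXCR5 and high for PD1, as T follicular helper (TFH) cells are, were sorted 7 days later. No TFH cells without transfer and no transferred cells sorted as naive were included, so sorting and transfer into an F1 host cannot be told apart. The labels do not state donor age, sex or strain, nor that replicate libraries are from separate animals. The p-values therefore cover only how far these samples differ from each other, and that spread may be technical. In naive KO it was not technical alone, since the 2 libraries differed in sex-linked RNA, as given below.

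Complexes I to IV of the inner mitochondrial membrane pass electrons from NADH and succinate through coenzyme Q and cytochrome c to oxygen, and complexes I, III and IV pump protons as they do so. Complex V lets the protons flow back and makes ATP. Resting T cells obtain most of their ATP this way, and activated T cells raise glycolysis and enlarge their mitochondria. Each complex is built with the help of assembly factors that are not part of the finished enzyme. All except complex II, which has 4 subunits, combine a few catalytic subunits with many small accessory subunits.

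Each level below is a deposited log2 value, with distributions matched across libraries as after quantile normalization, and each change is a difference of group means on that scale with its standard error (SE) from limma, fitted to all genes and all 8 libraries (n = 2 libraries per group). A gene was called, and is said to have risen or fallen, at a Benjamini-Hochberg adjusted p below 0.05 over all 14042 genes. Depth is unknown because the tables hold no counts. Levels are not compared between genes, since the values were not scaled per transcript length in any stated way. In bulk RNA fewer cells of a type and less RNA per cell cannot be told apart.

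The labels were only partly matched by the sort markers. Cxcr5 was lower in the TFH-labelled libraries (10.85 to 11.56) than in the naive-labelled libraries (11.56 to 12.45), and Cd44 was likewise lower (11.97 to 12.11 against 12.53 to 13.04). Il21, the cytokine of TFH cells, followed the labels (9.58 to 10.40 against 7.31 to 8.19). Pdcd1, the PD1 gene, lay higher on average in the TFH-labelled libraries, but the ranges overlapped (11.88 to 12.85 against 10.80 to 11.97) and the difference was not called. The groups are for that reason named as labelled. Naive KO replicate 1 stood apart in sex-linked RNA, with Xist at 14.61 and Ddx3y at 5.67 against 4.44 to 5.56 and 12.54 to 13.16 in the other 7 libraries. Naive KO replicate 2 was at 4.62 and 12.54, so the naive KO group mixes RNA of both sexes. Markers of B cells also differed within groups: the median of 12 measured markers lay 0.65 above its mean over libraries in TFH WT replicate 2 and 2.17 above it in TFH KO replicate 2, against -1.52 and -1.63 in the other library of each group. Over these 12 genes the summed level, on a log2 scale, was 12.02 to 13.87 in TFH WT, 11.80 to 15.31 in TFH KO, 12.71 to 13.37 in naive WT and 13.15 to 13.88 in naive KO. The summed level of 12 myeloid markers was 13.78 to 15.44 in the naive-labelled and 11.47 to 13.13 in the TFH-labelled libraries, and naive WT replicate 1 was the highest. That of 10 CD8 T and NK cell markers was 13.17 to 13.58 and 11.58 to 12.67. None of these markers was at the minimum of the tables.

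Promoters come first, because subunit genes of all complexes are known targets of a small set of factors: NRF1, GABP (also called NRF2), YY1 and the estrogen-related receptors (ERR). RefSeq promoters of GRCm38.p6, running from 250 bases before to 50 bases after the start of the gene, were matched for 71 of the 86 members and 10875 of the 14042 genes. Both strands were searched, and matches of different motifs that overlapped were each counted. The NRF1 motif, GCGC followed by any base and TGCGC, was found in 26.8% of the members' promoters, in 10.6% of those of the genes in the tables and in 5.19% of all 27025 promoters. The GABP motif, CCGGAAG, was found in 25.4% of the members' promoters against 18.7% and 9.93%. The YY1 motif, AA followed by any base and ATGGCGG, was found in 9.86% against 3.53% and 1.59%, and the ERR motif, TCAAGGTCA, in 2.82% against 0.359% and 0.466%. At least 1 of the 4 motifs was present in 52.1% of the members' promoters, 29.4% of those of the genes in the tables and 15.4% of all. A match describes letters only and does not show binding.

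The 250 bases before the start are printed for 4 members: the largest falls and the largest rises among the members with a change called below. All are written 5′ to 3′ in the direction of the gene, with motif matches in capitals. Sdha (chr13:74350241-74350490, minus strand) held 3 matches to the NRF1 motif. Ndufaf4 (chr4:24897833-24898082, plus strand) held 1 match to the NRF1 motif and Ndufaf1 (chr2:119662835-119663084, minus strand) 1 match to the GABP motif. In Uqcrfs1 (chr13:30545317-30545566, minus strand) none of the 4 motifs was found in the window.
Sdha: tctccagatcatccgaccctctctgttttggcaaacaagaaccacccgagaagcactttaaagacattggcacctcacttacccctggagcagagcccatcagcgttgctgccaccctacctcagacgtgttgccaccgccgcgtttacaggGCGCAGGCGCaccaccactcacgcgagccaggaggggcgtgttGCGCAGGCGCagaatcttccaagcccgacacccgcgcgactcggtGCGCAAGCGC
Ndufaf4: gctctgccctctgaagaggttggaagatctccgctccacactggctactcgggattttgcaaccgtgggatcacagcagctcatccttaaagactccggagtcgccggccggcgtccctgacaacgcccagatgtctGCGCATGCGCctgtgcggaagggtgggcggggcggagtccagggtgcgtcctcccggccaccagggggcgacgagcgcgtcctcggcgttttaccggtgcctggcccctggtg
Ndufaf1: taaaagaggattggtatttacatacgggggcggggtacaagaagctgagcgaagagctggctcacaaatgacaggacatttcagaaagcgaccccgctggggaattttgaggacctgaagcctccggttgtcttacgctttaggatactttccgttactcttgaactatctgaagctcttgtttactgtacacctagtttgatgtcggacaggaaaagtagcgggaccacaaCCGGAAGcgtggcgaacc
Uqcrfs1: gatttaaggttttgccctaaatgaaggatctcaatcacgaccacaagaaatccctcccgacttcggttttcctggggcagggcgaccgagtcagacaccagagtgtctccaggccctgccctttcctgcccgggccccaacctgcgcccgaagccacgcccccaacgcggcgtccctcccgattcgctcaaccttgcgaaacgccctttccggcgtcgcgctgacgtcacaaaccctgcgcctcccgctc

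Motif counts were also taken for the members called in the comparison of labels. The NRF1 motif was found in 2 of 9 matched promoters of members that rose and 1 of 5 of members that fell. The GABP motif was found in 0 of 9 and 2 of 5. These are counts of few promoters, given as a description.

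TFH-labelled libraries were compared with naive-labelled libraries to ask how the sorted, transferred cells differed from resting CD4 cells. As the mean of both genotypes, 10 members rose and 7 fell. The rises were small: Uqcrfs1, the Rieske iron-sulfur protein of complex III, rose by 0.49 ± 0.08 (1.404-fold) and Ndufaf4 by 0.40 ± 0.09 (1.32-fold). Ndufaf1, an assembly factor of complex I, fell by 0.89 ± 0.11 (to 0.54 of its naive level), and Sdha, the flavoprotein of complex II, fell by 0.46 ± 0.08 (to 0.727). The 17 members called are 19.8% of the 86, beside 38.1% of all genes (18.3% higher and 19.8% lower). The median member changed by 0.03 and the median gene by 0.0015.

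**Figure D1:**
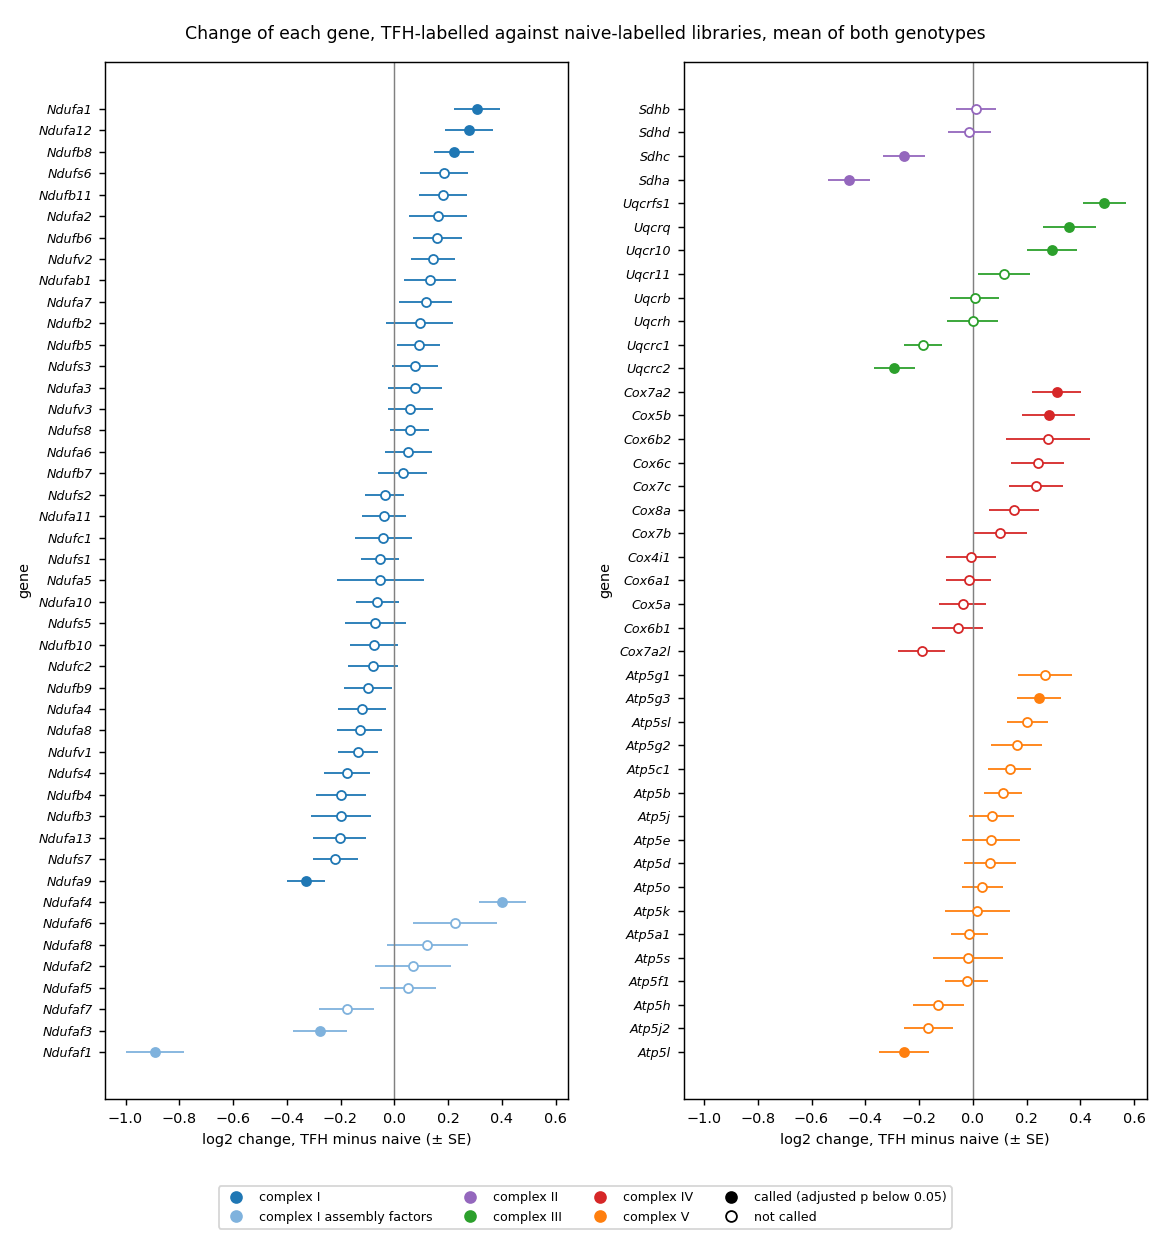
Log2 change of each of the 86 genes between TFH-labelled and naive-labelled libraries as the mean of both genotypes, with bars of ± SE (n = 2 libraries per group), coloured by complex. Filled points are the 17 genes called, from Uqcrfs1 at 0.49 to Ndufaf1 at -0.89.

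The members spanned a narrower range of levels than the median gene. From the lowest to the highest of the 8 libraries the median member spanned 0.44 and the median gene 0.59. Only Ndufaf1 spanned more than 1 (1.05), which is 1.16% of members against 19.5% of all genes. All 4 TFH-labelled libraries lay above all 4 naive-labelled libraries for 5 members and below them for 5, beside 18.2% and 20.3% of all genes.

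The number called depended on single libraries. Leaving out naive WT replicate 1 gave 8, naive WT replicate 2 gave 11, TFH WT replicate 1 gave 8, TFH KO replicate 1 gave 9 and TFH KO replicate 2 gave 10. Leaving out naive KO replicate 1, naive KO replicate 2 or TFH WT replicate 2 gave 12, 18 and 14. The share of all genes called was between 30.3% and 34.8% over these 8 fits. It was 7 without both TFH libraries with high B cell markers, with 25.7% of all genes called, and 9 without the mean-variance trend, with 34.9%. Ndufaf1, Sdha, Uqcrfs1 and Ndufaf4 were called in all 16 alternatives run for that comparison.

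The assembly factors of complex I had 3 of 8 members called, 1 higher and 2 lower (37.5%, beside 38.1% of all genes). They held the largest fall among the members. Values are given here and below in the order WT replicate 1, WT replicate 2, KO replicate 1 and KO replicate 2. Ndufaf1 was at 9.62, 9.73, 9.57 and 9.70 in the naive-labelled and at 8.81, 8.68, 8.88 and 8.69 in the TFH-labelled libraries. The groups did not overlap, and the gap between them was several times the gap between replicates. The adjusted p was 6.85e-05 in limma, and the change was -0.93 ± 0.15 in WT and -0.85 ± 0.15 in KO. Ndufaf1 belongs to the intermediate assembly complex that holds the membrane arm together while it is built.

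Ndufaf4 and Ndufaf3, which are known to bind each other early in complex I assembly, went in opposite directions. Ndufaf4 was at 10.20, 10.31, 10.33 and 10.34 in the naive-labelled and at 10.64, 10.57, 10.92 and 10.65 in the TFH-labelled libraries (limma adjusted p = 0.0033). Ndufaf3 was at 9.61, 9.65, 9.72 and 9.99 and then at 9.62, 9.46, 9.40 and 9.39, a fall of 0.28 ± 0.10 (limma adjusted p = 0.0497). For Ndufaf4 the groups were apart, while for Ndufaf3 they overlapped and the call was lost in 10 of 16 alternatives. Ndufaf3 overlaps Impdh2, a gene of purine synthesis, on the other strand. Impdh2 rose by 0.28 ± 0.07, and without stated strand the reads of the pair cannot be told apart. The other 5 Ndufaf genes were not called, with changes from -0.18 ± 0.10 for Ndufaf7 to 0.23 ± 0.16 for Ndufaf6.

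Of 9 measured assembly factors of complex I outside the naming rule, 3 fell and 1 rose (44.4% called, beside 38.1% of all genes). Tmem186, which belongs to the same intermediate complex as Ndufaf1, was at 10.83, 10.95, 10.83 and 10.69 in the naive-labelled and at 9.71, 9.76, 9.96 and 9.63 in the TFH-labelled libraries, a fall of 1.06 ± 0.10 (limma adjusted p = 8.08e-06). Tmem126b, another member of that complex, was at 9.25, 9.498, 9.31 and 9.35 and then at 8.56, 8.06, 8.09 and 7.995, a fall of 1.18 ± 0.14 (limma adjusted p = 5.13e-05). Tmem261 fell by 0.76 ± 0.09. In all 3 genes the groups were apart. Ecsit and Acad9, further members of the intermediate complex, were at -0.14 ± 0.08 and 0.10 ± 0.09 and were not called, nor was Timmdc1 at 0.22 ± 0.09. Tmem126a rose by 0.26 ± 0.09 (limma adjusted p = 0.0425).

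Of the 37 subunit genes of complex I, 3 rose and 1 fell (10.8% called, beside 38.1% of all genes). None of the 7 core subunits encoded in the nucleus, which carry the flavin and iron-sulfur clusters, was called in any comparison. Their changes ran from -0.22 ± 0.08 for Ndufs7 to 0.14 ± 0.08 for Ndufv2. Ndufs1, which holds iron-sulfur clusters of the NADH-oxidizing module, was at 11.89, 12.02, 11.94 and 12.03 and then at 12.02, 11.88, 11.90 and 11.88. Ndufv1, which binds NADH, was at 11.89, 12.11, 11.97 and 12.09 and then at 11.92, 11.88, 11.85 and 11.87. The groups overlapped for Ndufs1, and Ndufv1 changed by -0.14 ± 0.07 (95% interval -0.30 to 0.03).

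All 4 complex I subunits called were among the 29 accessory subunits, of which 13.8% were called, beside 38.1% of all genes. Whether core and accessory subunits differ was not tested. Ndufa1, a small protein of the membrane arm encoded on the X chromosome, was at 10.61, 10.68, 10.70 and 10.98 and then at 11.20, 11.0002, 11.03 and 10.97, a rise of 0.31 ± 0.09 (limma adjusted p = 0.0151). Ndufa12 was at 10.46, 10.51, 10.37 and 10.57 and then at 10.99, 10.71, 10.68 and 10.65, a rise of 0.28 ± 0.09 (limma adjusted p = 0.028). Ndufa12 takes the place of an assembly factor late in the building of complex I. Ndufb8, a subunit of the membrane arm, was at 11.18, 11.16, 11.14 and 11.31 and then at 11.57, 11.41, 11.36 and 11.33, a rise of 0.22 ± 0.08 (limma adjusted p = 0.0353). Naive KO replicate 2 was the highest naive-labelled library for all 3, and for Ndufa1 it reached the lowest TFH-labelled library. The call was lost in 8 of 16 alternatives for Ndufb8, 7 for Ndufa12 and 2 for Ndufa1. Ndufa9, which sits where the arms of complex I meet, was at 11.86, 11.77, 11.83 and 11.91 and then at 11.65, 11.55, 11.49 and 11.36, a fall of 0.33 ± 0.07 with the groups apart (limma adjusted p = 0.0039). Its fall was -0.27 and not called (limma adjusted p = 0.0686) without both TFH libraries with high B cell markers.

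Complex II, which joins the citric acid cycle to the chain, had 2 of 4 members called, both lower. Of all genes 38.1% were called, and 19.8% were called lower. Sdha, which oxidizes succinate, was at 13.76, 13.76, 13.75 and 13.83 in the naive-labelled and at 13.48, 13.25, 13.33 and 13.20 in the TFH-labelled libraries (limma adjusted p = 0.00074). The naive-labelled libraries lay close together and the groups were apart. Sdhc, a membrane anchor, was at 11.55, 11.60, 11.52 and 11.65 and then at 11.52, 11.26, 11.24 and 11.28, a fall of 0.26 ± 0.08 (limma adjusted p = 0.0231). TFH WT replicate 1 reached the naive level for Sdhc, whose call was lost in 6 of 16 alternatives.

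The other 2 members of complex II were not called. Sdhb, the iron-sulfur subunit that accepts electrons from Sdha, was at 12.18, 12.18, 12.20 and 12.43 and then at 12.36, 12.22, 12.22 and 12.24, a difference of 0.01 ± 0.08 (95% interval -0.15 to 0.18). The 95% interval of Sdha, -0.63 to -0.29, does not meet that of Sdhb. The difference between these genes was not itself tested. Sdhd, the other anchor, differed by -0.01 ± 0.08. Of 4 assembly factors of complex II, Sdhaf1 rose by 0.47 ± 0.09 and Sdhaf4 fell by 0.57 ± 0.15 (50% called, beside 38.1% of all genes).

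Complex III had 4 of 8 members called, 3 higher and 1 lower, beside 38.1% of all genes. Uqcrfs1, which passes electrons to cytochrome c1, was at 11.80, 11.91, 11.86 and 12.01 in the naive-labelled and at 12.49, 12.28, 12.46 and 12.31 in the TFH-labelled libraries (limma adjusted p = 0.00056). Uqcrc2, a core protein facing the matrix, was at 13.24, 13.14, 13.25 and 13.29 and then at 13.14, 12.91, 12.87 and 12.83, a fall of 0.29 ± 0.08 (limma adjusted p = 0.0096). The groups were apart for both genes, upward for Uqcrfs1 and downward for Uqcrc2. Uqcrc1, the partner of Uqcrc2 in the core, was at 13.05, 13.13, 13.11 and 13.23 and then at 13.05, 12.90, 12.92 and 12.92. Its change of -0.18 ± 0.07 was not called (limma adjusted p = 0.0617).

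Of the 5 small subunits of complex III 2 were called, both higher (40%, beside 38.1% of all genes, with 18.3% called higher). The others differed by 0.12 ± 0.10 for Uqcr11, 0.007 ± 0.09 for Uqcrb and -0.0002 ± 0.10 for Uqcrh. Uqcrq was at 10.55, 10.66, 10.34 and 10.76 and then at 11.02, 10.87, 10.95 and 10.91, a rise of 0.36 ± 0.10 with the groups apart (limma adjusted p = 0.0132). Uqcr10 was at 11.29, 11.39, 11.29 and 11.71 and then at 11.89, 11.72, 11.63 and 11.62, a rise of 0.29 ± 0.09 (limma adjusted p = 0.028). Naive KO replicate 2 lay within the TFH-labelled range for Uqcr10, whose call was lost in 8 of 16 alternatives. Cyc1, the cytochrome subunit whose name falls outside the rule, differed by -0.09 ± 0.08 and was not called. None of 6 measured assembly factors of complex III was called, and the smallest p belonged to Uqcc3 at -0.26 ± 0.10.

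Complex IV had 2 of 12 members called, both higher (16.7%, beside 38.1% of all genes). Cox7a2, the form of subunit 7a found in most tissues, was at 11.62, 11.79, 11.63 and 12.002 and then at 12.21, 12.06, 12.04 and 11.99, a rise of 0.31 ± 0.09 (limma adjusted p = 0.0184). Cox5b, a zinc-binding subunit, was at 11.95, 11.93, 11.71 and 12.16 and then at 12.37, 12.19, 12.08 and 12.23, a rise of 0.28 ± 0.10 (limma adjusted p = 0.043). In both genes naive KO replicate 2 reached the TFH-labelled range. The call was lost in 10 of 16 alternatives for Cox5b and 6 for Cox7a2.

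The subunits that start the assembly of complex IV around its mitochondrially encoded core were not called. Cox4i1 was at 13.67, 13.72, 13.63 and 13.98 and then at 13.88, 13.71, 13.79 and 13.60, a difference of -0.01 ± 0.09. Cox5a was at 11.68, 11.54, 11.43 and 11.77 and then at 11.70, 11.59, 11.48 and 11.50, a difference of -0.04 ± 0.09. For both genes the 95% interval lay between -0.23 and 0.20. Cox7a2l, the supercomplex factor, had the largest difference downward in the complex: it was at 14.36, 14.47, 14.48 and 14.56 and then at 14.39, 14.19, 14.42 and 14.11, a change of -0.19 ± 0.09 that was not called. Cox6b2, an isoform known from testis, was at 7.80, 8.26, 8.38 and 7.87 and then at 8.14, 8.20, 8.47 and 8.62, which overlapped. Of 21 measured assembly factors of complex IV, 3 rose and 5 fell (38.1% called, the same share as of all genes). Coa3, which supports the making of the mitochondrially encoded Cox1, fell by 0.68 ± 0.08. Taco1, its translational activator, fell by 0.62 ± 0.11, and Cox15, of heme A synthesis, fell by 0.45 ± 0.08.

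Complex V had 1 member higher and 1 lower of 17 (11.8% called, beside 38.1% of all genes). The 3 genes Atp5g1, Atp5g2 and Atp5g3 encode the same mature c subunit, which forms the rotating ring, behind different import sequences. Atp5g3 was at 12.50, 12.50, 12.40 and 12.66 and then at 12.96, 12.73, 12.66 and 12.71, a rise of 0.25 ± 0.08 (limma adjusted p = 0.0347). Naive KO replicate 2 reached the TFH-labelled range, and the call was lost in 8 of 16 alternatives. Atp5g1 was at 11.73, 11.89, 11.66 and 12.06 and then at 12.28, 12.06, 12.11 and 11.98, a difference of 0.27 ± 0.10 that was not called (limma adjusted p = 0.0522). Atp5g2 was at 13.01, 13.25, 13.15 and 13.47 and then at 13.56, 13.37, 13.36 and 13.24, a difference of 0.16 ± 0.09. In WT the 3 genes differed by nearly the same amount, 0.35 ± 0.14, 0.34 ± 0.13 and 0.34 ± 0.12 for Atp5g1, Atp5g2 and Atp5g3. Atp5g3 alone was called there (limma adjusted p = 0.0499), and that call was lost in 7 of 13 alternatives. In KO the differences were 0.18 ± 0.14, -0.01 ± 0.13 and 0.15 ± 0.12 in the same order, and none was called. TFH WT replicate 1 was the highest of the 8 libraries for all 3 genes.

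In the catalytic head of complex V 0 of 5 members were called, beside 38.1% of all genes. Atp5b, the catalytic beta subunit, was at 15.17, 15.02, 15.21 and 15.16 and then at 15.38, 15.25, 15.16 and 15.22, a difference of 0.11 ± 0.07. Atp5a1, the alpha subunit, differed by -0.01 ± 0.07. Atp5l, the g subunit where synthase dimers meet, was at 12.60, 12.77, 12.58 and 12.94 and then at 12.64, 12.48, 12.43 and 12.32, a fall of 0.26 ± 0.09 with overlapping groups (limma adjusted p = 0.0451). Its call was lost in 11 of 16 alternatives. Of 4 measured genes of ATP synthase assembly and inhibition 2 were called (50%, beside 38.1% of all genes). Atpaf1, which guides the beta subunit into the head, fell by 0.89 ± 0.09, and Tmem70, which acts on the c ring, fell by 0.50 ± 0.09.

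**Figure D2:**
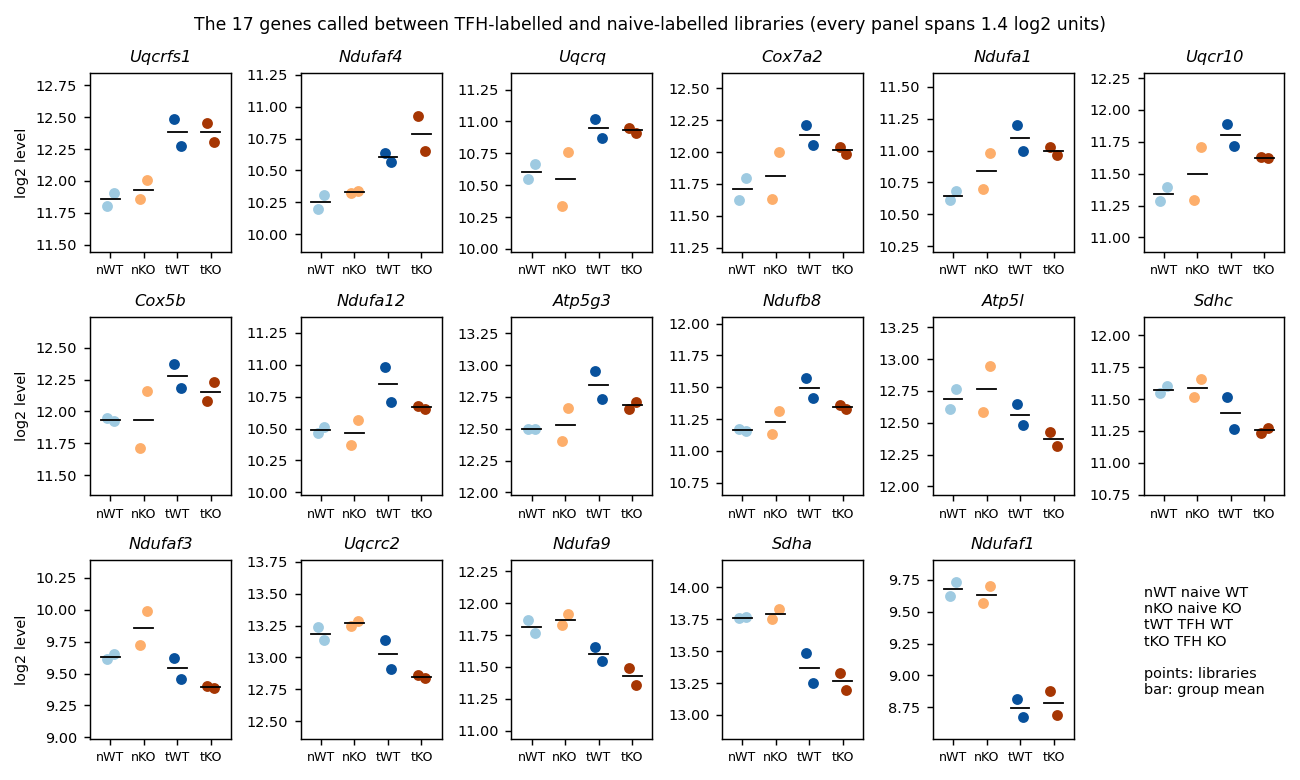
Log2 level of the 17 genes called between TFH-labelled and naive-labelled libraries, with 1 point per library and a bar at the group mean, on axes that each span the same number of log2 units. Ndufaf1 and Sdha were lower and Uqcrfs1 and Ndufaf4 higher in every TFH-labelled library, while naive KO replicate 2 reached the TFH-labelled range in Ndufa1, Cox7a2, Cox5b, Uqcr10 and Atp5g3.

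Median transcript length differed between members that rose and those that fell, while the ranges overlapped. The median was 732 nt for the 10 that rose (419 to 3632 nt) and 1487 nt for the 7 that fell (544 to 2900 nt). It was 763 nt for the members as a whole, from GENCODE coding transcripts. Across 85 members Spearman's rho between change and length was -0.25, against 0.015 across 13913 genes, and genes are not independent replicates. By library, rho between length and deviation from the gene mean was 0.37 and -0.004 in naive WT and 0.45 and -0.095 in naive KO. In the TFH-labelled libraries it ran from -0.29 to -0.11. The part of length in these changes was not tested. Among the members called, Ndufa9, Ndufb8, Uqcrc2, Atp5l and Ndufaf3 overlap another annotated gene, and Ndufa12, Cox5b and Atp5l have named pseudogenes, so their counts could hold reads of other loci.

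Within WT and within KO fewer members were called. In WT 6 rose and 2 fell, 9.3% of members beside 26.3% of all genes (12.6% higher and 13.7% lower). In KO 2 rose and 5 fell, 8.14% beside 19.5% of all genes (9.12% higher and 10.4% lower). Ndufaf1, Sdha and Uqcrfs1 were called in both, in the same direction, which is 37.5% of the WT calls and 42.9% of the KO calls. Ndufa1, Ndufb8, Uqcr10, Cox7a2 and Atp5g3 passed the threshold, all higher, in WT and not in KO. Ndufa9, Uqcrc2 and Ndufaf3, all lower, and Ndufaf4, higher, passed it in KO and not in WT. None of them differed between the genotypes in the interaction test, which is given below.

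**Figure D3:**
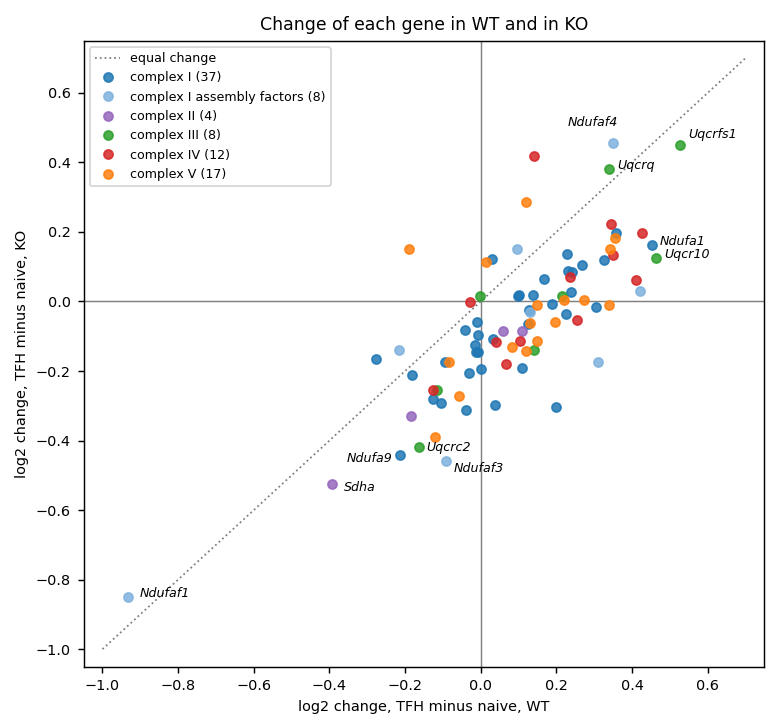
Log2 change of each gene between TFH-labelled and naive-labelled libraries in WT (horizontal axis) and in KO (vertical axis), coloured by complex, with a dotted line at equal change. Most points lie below the line, since 73 of 86 genes had a smaller value in KO, beside 52.5% of all genes. None of the 86 passed the interaction test.

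The counts within a genotype moved with single libraries. In WT, where the count was 8, leaving out naive WT replicate 1 gave 2, naive WT replicate 2 gave 3, TFH WT replicate 1 gave 2 and TFH WT replicate 2 gave 5, while 14.2% to 17.8% of all genes were called. In KO, where the count was 7, it was 3 without TFH KO replicate 1, with 15.8% of all genes called, and 3 without TFH KO replicate 2, with 9.96%. Centring each library on its ribosomal protein genes gave 11 higher and 2 lower in WT, beside 24.3% of all genes called. It gave 3 higher and 4 lower in KO, and 17 higher and 5 lower as the mean of both genotypes. The median change of all genes was then 0.02 in WT, 0.07 in KO and 0.05 as the mean. Without this centring it was 0.007, -0.01 and 0.0015 in the same order.

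Loss of C5aR1 was examined under each label. No member was called in either comparison or in the interaction by limma, beside 0% of all genes in TFH-labelled libraries, 0.0712% in naive-labelled libraries and 0.0142% for the interaction. At an unadjusted p below 0.05 there were 0 members in TFH-labelled libraries, 1 in naive-labelled libraries and 0 for the interaction, beside 3.6%, 2.53% and 4.37% of all genes. No member was called in any alternative fit of these 3 comparisons. The differences of single members between KO and WT ran from -0.30 to 0.37 in TFH-labelled and from -0.39 to 0.29 in naive-labelled libraries, with a median SE of 0.13.

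Ndufa3, an accessory subunit of complex I on chromosome 7 (chr7:3617373-3620327, GRCm38), had the smallest p among complex I subunits in both comparisons. It was at 11.30 and 11.72 in naive WT, 11.03 and 11.21 in naive KO, 11.65 and 11.43 in TFH WT and 11.21 and 11.27 in TFH KO. Both KO libraries were below both WT libraries under each label. The difference was -0.39 ± 0.14 in naive-labelled (unadjusted p = 0.018, adjusted p = 1 in limma) and -0.30 ± 0.14 in TFH-labelled libraries (95% interval -0.61 to 0.01), so neither passed the test. Its difference between the labels was 0.08 ± 0.10.

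None of the other members with the smallest p in a complex was called either. In TFH-labelled libraries the KO minus WT difference was 0.18 ± 0.12 for Ndufaf4, -0.14 ± 0.11 for Sdhd, -0.17 ± 0.11 for Uqcrc2, 0.37 ± 0.22 for Cox6b2 and -0.18 ± 0.10 for Atp5a1. In naive-labelled libraries it was 0.22 ± 0.14 for Ndufaf3, 0.14 ± 0.11 for Sdhb, 0.16 ± 0.13 for Uqcr10, 0.12 ± 0.13 for Cox4i1 and 0.18 ± 0.13 for Atp5g2. All of these values lay within 2 SE of 0. Sdhd was at 11.92 and 11.89 in naive WT, 11.79 and 12.03 in naive KO, 12.06 and 11.86 in TFH WT and 11.81 and 11.84 in TFH KO. Atp5a1 was at 15.00 and 14.83 in naive WT, 14.98 and 15.02 in naive KO, 15.07 and 15.00 in TFH WT and 14.83 and 14.88 in TFH KO. Both KO libraries lay below both WT libraries in the TFH-labelled groups for each of these genes.

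Most members nevertheless leaned the same way. Under the TFH label 70 of 86 members (81.4%, beside 49.7% of all genes) were lower in KO, with a median of -0.12. In naive-labelled libraries 73 of 86 were higher in KO, with a median of 0.07, beside 7637 of all 14042 genes higher. Both KO libraries lay below both WT libraries for 32 members and above them for 5 in TFH-labelled libraries, beside 16.5% and 16.5% of all genes. The groups were apart for 9 higher and 1 lower members in naive-labelled libraries, beside 15.2% and 11.2%. The median of the interaction was -0.16, with 73 of 86 members below 0 (84.9%, beside 52.5% of all genes).

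These leanings changed when single libraries were left out. The 2 fits given here each drop the library of the pair with the higher member median. With 2 libraries per group it cannot be told which replicate stands apart. The median deviation of the 86 members from their own means was 0.14 in TFH WT replicate 1 and 0.15 in naive KO replicate 2, and it was below 0 in the other 6 libraries, down to -0.12 in naive KO replicate 1. In TFH WT 83 of 86 members were higher in replicate 1, and in naive KO 83 of 86 were higher in replicate 2. The naive KO libraries also differ in sex-linked RNA, and the part of sex in their gap was not tested. Without TFH WT replicate 1 the median KO minus WT difference in TFH-labelled libraries was -0.01. Without naive KO replicate 2 the median in naive-labelled libraries was -0.05, the opposite sign. The SD between replicates of the member median was 0.12, as large as the differences themselves.

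**Figure D4:**
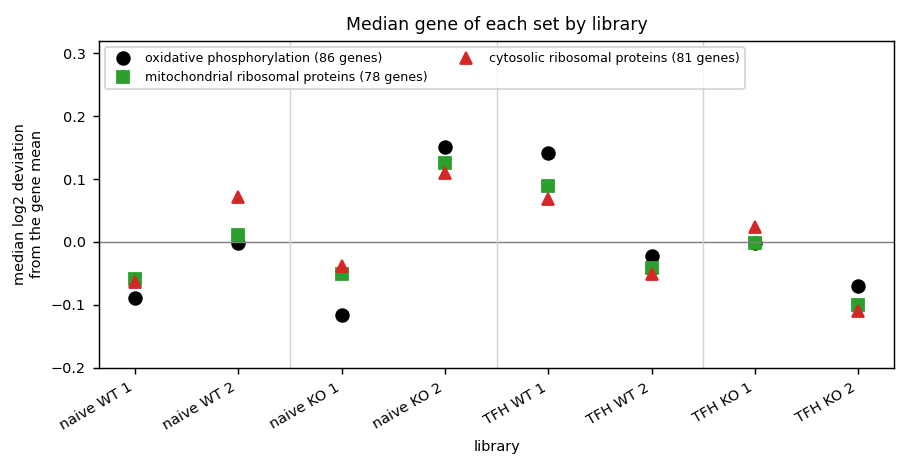
Median log2 deviation from the gene mean in each library for the 86 oxidative phosphorylation genes, 78 mitochondrial ribosomal protein genes and 81 cytosolic ribosomal protein genes. All 3 sets were highest in naive KO replicate 2 or TFH WT replicate 1, where the oxidative phosphorylation genes reached 0.15 and 0.14.

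Genes for ribosomal proteins followed the same libraries. The median of 78 mitochondrial ribosomal protein genes was 0.13 in naive KO replicate 2 and 0.09 in TFH WT replicate 1, and that of 81 cytosolic ribosomal protein genes was 0.11 and 0.07, with naive WT replicate 2 at 0.07 too. The part of this shared shift in the differences between KO and WT was not tested.

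**Figure D5:**
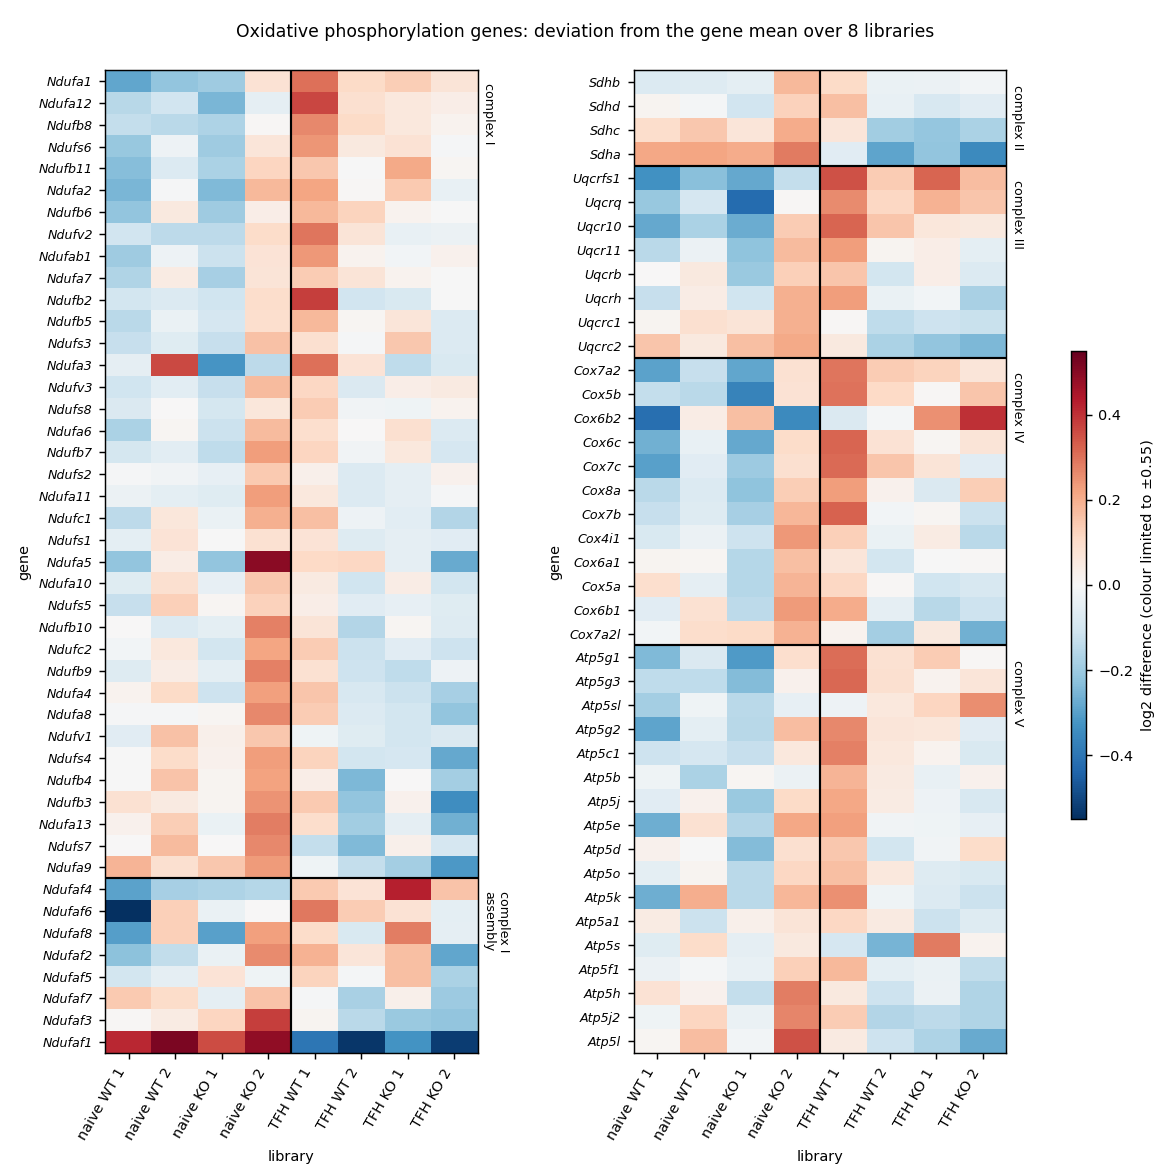
Deviation of each of the 86 genes (rows, by complex, sorted by the change between labels) from its mean over the 8 libraries (columns), in log2 units with the colour limited as its scale states. Naive KO replicate 2 and TFH WT replicate 1 are the reddest columns, and Ndufaf1, Sdha and Uqcrfs1 differ between the naive-labelled and TFH-labelled columns in all libraries.

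Genes that supply or regulate the chain were compared between the labels as the mean of both genotypes, where 38.1% of all genes were called. Of 17 genes for electron carriers and coenzyme Q, 5 rose and 2 fell. Coq10b, which binds coenzyme Q, rose by 1.35 ± 0.10 (9.38, 9.65, 9.47 and 9.47 and then 10.77, 10.70, 11.11 and 10.80), beyond the largest rise among the members. Coq2 and Coq8a, of coenzyme Q synthesis, rose by 0.44 ± 0.07 and 0.45 ± 0.09, and Cycs, cytochrome c itself, rose by 0.33 ± 0.09. Of 18 genes of the citric acid cycle and pyruvate dehydrogenase, 3 fell and 1 rose. Idh2 fell by 0.45 ± 0.08, Pdha1 fell by 0.32 ± 0.07 and Ogdh fell by 0.22 ± 0.07, while Fh1, the enzyme after complex II in the cycle, rose by 0.22 ± 0.08.

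Of 17 regulators of mitochondrial biogenesis, 3 rose and 3 fell. Ppargc1b, a coactivator of NRF1 and ERR, rose by 0.90 ± 0.12 (limma adjusted p = 0.00012) and Nrf1 itself by 0.32 ± 0.09 (limma adjusted p = 0.0123). Tfb2m, needed to start transcription of mitochondrial DNA, rose by 0.60 ± 0.08. Tefm, the elongation factor of that transcription, fell by 1.24 ± 0.13, and Mterf1a, of the mitochondrial transcription termination factors, fell by 1.61 ± 0.17. Gabpa at -0.02 ± 0.08, Esrra at -0.13 ± 0.07, Yy1 at 0.14 ± 0.08 and Tfam at -0.17 ± 0.07 were not called. Myc, a growth regulator of activated T cells, rose by 0.85 ± 0.10.

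Of 11 carriers and pores, 3 rose and 2 fell. The phosphate carrier Slc25a3 and the ADP/ATP carrier Slc25a5, which feed complex V, rose by 0.31 ± 0.08 and 0.31 ± 0.07. The pore Vdac3 fell by 0.44 ± 0.08. Of 9 mitochondrial antioxidant genes 2 fell, Gpx4 at -0.47 ± 0.10 and Prdx3 at -0.35 ± 0.08. Of 78 mitochondrial ribosomal protein genes 9 rose and 14 fell, and of 81 cytosolic ribosomal protein genes 2 rose and 2 fell.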

How the data were processed

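Per the labels, RNA of sorted mouse CD4 T cells was isolated on columns and read from 1 end at 51 bp. BWA and the build mm10 are named in the submitters' processing notes. The tool that counted reads, like the annotation and scaling, is not given in the sources used here. Per library, the authors deposited log2 expression values for 14042 gene symbols, 8 libraries in all, from 1.16 to 19.48. Above the lowest percentile sorted values differ from the median library by at most 0.0304, as after quantile normalization, which removes differences in overall spread and hides depth, so no counting interval is given.

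The deposited log2 values were fitted as they stand, with no pseudocount, in limma 3.58.1 (R 4.3.3, statmod 1.5.0), with 1 mean per group over all 8 libraries, standard errors moderated by eBayes with its trend and robust options, and p-values adjusted over all genes. The trend option had been chosen after results with and without it were seen. The comparisons were TFH-labelled minus naive-labelled within WT, within KO and as the mean of both, KO against WT under each label, and the interaction. With 2 libraries a side, the smallest two-sided p an exact permutation test allows is 0.333. The script was tested on simulated data.

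The members and gene lists were chosen with earlier results of these data known, and the grouping of members by role was added after their values were seen. Values by library are given for members called in any comparison, the largest rise and fall per complex, the smallest p per complex between KO and WT, and a fixed set of subunits. From each other list up to 3 called genes are named by p, or 1 where none was called, with a few fixed regulators; the ribosomal protein lists are given by counts only. Members at the ends of a range, Impdh2, Tmem126a, Ecsit, Acad9, Timmdc1, Fh1 and Slc25a3 were named after their values were seen. A gene that this rule would name is not reported here. Gene positions are from GENCODE vM21 (85 of 86 members located, on GRCm38) and promoters from RefSeq on GRCm38.p6. Of the members, 9 have named pseudogenes, 20 overlap a gene on the other strand and 3 a gene on the same strand. The alternatives are other variance options, filters, scalings, library weights, a B cell covariate, fewer libraries and each library left out in turn. Replicates were numbered by accession and are not paired.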

Additional observations from a re-analysis of the deposited data

How the results depend on the processing

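No paired analysis was possible because the labels carry no replicate numbers. A fit of the compared groups alone could not be run for the mean of both genotypes or for the interaction, which use all groups. Where a group was left with 1 library, that library was assumed to vary like the others.

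The number of members called between TFH-labelled and naive-labelled libraries changed most. The share of all genes called in the same fit is given in parentheses. In WT the 8 calls (26.3%) became 3 without the mean-variance trend (23%), 14 with the compared groups only (27.3%), 13 with centring on ribosomal protein genes (24.3%), 3 without both TFH libraries with high B cell markers (15%), and 2 to 5 with each library left out in turn (14.2% to 17.8%). In KO the 7 calls (19.5%) became 3 without the trend (14.2%), 11 with a B cell covariate (25.2%), 3 without both TFH libraries with high B cell markers (8.72%), and 3 to 5 with each library left out (9.96% to 15.8%). As the mean of both genotypes the 17 calls (38.1%) became 9 without the trend (34.9%), 7 without both of those TFH libraries (25.7%), and 8 to 18 with each library left out (30.3% to 34.8%). The smaller sets have fewer libraries; for the other settings the cause was not tested. Of the 17 genes called, 9 were still called without the trend and 15 to 17 under the other settings that keep all libraries.

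No alternative gave a call between KO and WT under either label or for the interaction. The median change of all genes moved by less than 0.1 under each scaling. The member median in KO between the labels was -0.06 and became 0.02 with centring on ribosomal protein genes and 0.06 without naive KO replicate 2. As the mean of both genotypes it was 0.03 and became -0.03 without naive KO replicate 1 and -0.01 without TFH WT replicate 1. With each library left out, Sdhb as the mean of both genotypes ran from -0.046 (without naive KO replicate 1) to 0.069, and was -0.023 without TFH WT replicate 1. The KO minus WT difference in naive-labelled libraries ran from -0.056 to 0.29 for Cox4i1 and from -0.047 to 0.37 for Uqcr10, lowest without naive KO replicate 2. For these signs the cause was not tested.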
